A study of Mus musculus with 12 samples.

Results

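The transcripts examined here are the hepcidins and the genes of iron handling, 10 genes among the 22252 entries of the liver and gonadal white adipose tissue (WAT) tables and the 22273 entries of the gastrocnemius tables. They were taken by gene symbol, with Hamp2 as the lead gene: Hamp and Hamp2, Bmp6, Id1, Smad7, Tfr2, Tfrc, Trf, Fth1 and Slc40a1. The members were chosen by their levels, in counts per 1000000 counts of the library (CPM), and the ratios of these in the same libraries, so their values are a description and carry no test. RNA-seq was performed on gastrocnemius muscle, liver and gonadal WAT of male C57BL/6J mice, with 12 libraries in all. All mice carried floxed alleles of Nr3c1, the glucocorticoid receptor (GR) gene. GRf/f mice had no Cre, and GRmKO mice also carried Cre driven by the promoter of skeletal actin, so that exon 3 of the gene is removed in myofibers. Their liver and fat cells therefore still have the receptor. From 8 weeks of age, the mice drank 1% ethanol alone (vehicle) or with 100 μg/mL corticosterone (CORT, the main glucocorticoid of rodents) for 4 weeks. Each combination of tissue, genotype and treatment is 1 library of RNA pooled from 3 mice, so there is no replicate error and no p-value. Intervals given below are 95% intervals of counting error only. A gene was called where its level differed by at least 2-fold, a log2 ratio of 1 or more in size, after 0.5 was added to the CPM.

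Hepcidin is a peptide hormone released by hepatocytes. It binds ferroportin, the only known iron exporter of mammalian cells, and thereby lowers iron release into the blood. Its transcription is driven by bone morphogenetic proteins (BMPs) through SMAD factors and, in inflammation, by IL-6 through STAT3. Mice carry a second gene, Hamp2, next to Hamp, whose product does not share the established iron function of hepcidin. Inside cells, iron regulatory proteins bind stem-loops called iron-responsive elements (IREs) when iron is scarce, which stabilises the transferrin receptor mRNA and blocks translation of ferritin and ferroportin mRNAs.

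Library totals were 19394572 to 20940660 expected counts, so that 3 counts, the lowest level treated as detected, were 0.143 to 0.155 CPM. In gastrocnemius, Nr3c1 in GRmKO was 41.2% of the GRf/f level under vehicle and 39.2% under CORT, and the corresponding percentages were 104.9% and 109.7% in liver and 101.7% and 81.5% in WAT. Hepatocyte markers summed to between 75078 and 135667 CPM in liver, muscle fiber markers to between 59690 and 94487 CPM in gastrocnemius, and adipocyte markers to between 17150 and 21962 CPM in WAT. Each tissue label therefore had its defining transcripts.

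The hepcidin genes lie side by side on the minus strand of chromosome 7 (GRCm38), Hamp at chr7:30942368-30944032 and Hamp2 at chr7:30922372-30924681, each with 3 exons. Their coding sequences are 249 bases long and differ at 16 bases (93.6% identity), and 14 of the 16 lie in the last 75 bases, which encode the mature peptide. That stretch is shown because it is where the genes, and the counts assigned to them, are most easily told apart. The capitals mark the bases that differ.
Hamp: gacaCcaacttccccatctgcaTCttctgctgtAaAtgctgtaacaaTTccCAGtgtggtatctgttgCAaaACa
Hamp2: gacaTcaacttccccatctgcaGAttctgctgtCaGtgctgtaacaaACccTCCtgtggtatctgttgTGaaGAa
Over these 25 codons the encoded residues differ at 8 positions, while both sequences keep 8 cysteine codons. Of the 390 words of 31 bases in the Hamp2 transcript, 128 (32.8%) also occur in the Hamp transcript. Reads that fall within those shared words could be divided between the genes only by estimation.

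The promoters were compared because the genes are neighbors with different profiles in liver. In the RefSeq windows (GRCm38.p6), the 250 bases before each start are shown, with the BMP-response element GGCGCC, or the bases in its place, and the STAT-type motif TTCTTGGAA in capitals. Hamp is chr7:30944030-30944279 and Hamp2 is chr7:30924182-30924431, both read on the minus strand. Each window ends at the start of the transcript that the tables list for the gene or within a few bases of it, and the gene span of Hamp2 given above reaches further upstream, so that its window lies inside that span.
Hamp: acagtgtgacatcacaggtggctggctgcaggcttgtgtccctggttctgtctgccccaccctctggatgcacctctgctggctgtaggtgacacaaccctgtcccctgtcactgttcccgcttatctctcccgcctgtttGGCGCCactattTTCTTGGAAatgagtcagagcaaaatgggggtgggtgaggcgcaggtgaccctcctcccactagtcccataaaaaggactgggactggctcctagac
Hamp2: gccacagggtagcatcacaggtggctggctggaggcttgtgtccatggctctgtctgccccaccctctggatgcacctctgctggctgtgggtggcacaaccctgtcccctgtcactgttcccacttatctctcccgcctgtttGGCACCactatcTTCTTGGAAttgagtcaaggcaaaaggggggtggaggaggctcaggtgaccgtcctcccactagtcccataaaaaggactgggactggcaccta
The windows were identical at 227 of 253 aligned columns (89.7%). GGCGCC began 109 bases before the start of Hamp, and the aligned bases of Hamp2, 106 bases before its start, carried the change G4A, counted from the first base of the element. TTCTTGGAA was present in both windows. Searched on both strands, GGCGCC occurred in the 250 bases before the start in 9.59% of all 32851 RefSeq promoters, and TTCTTGGAA in 0.365% of them. AGAACA, a half-site of the glucocorticoid response element, occurred in 16.1% of all promoters over the same bases and in none of those of the 6 members with a RefSeq promoter (Hamp, Hamp2, Tfrc, Tfr2, Bmp6 and Fth1). GGCGCC was also found in 1 of the 2 promoters of Tfrc, 89 bases before its start, and Hamp2 held GGCACC a second time, 8 bases before its start. These are matches of letters in a short window and were not tested for binding.

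Tfrc, Slc40a1 and Fth1 carry IREs, which are shown because they set how their mRNAs answer to iron. The loop, CAGTG and 1 further base, is in capitals, and the stem arms of 5 bases on each side, with the unpaired C before the first arm, are in lower case.
Tfrc, chr16:32631225-32631241: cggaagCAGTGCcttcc
Tfrc, chr16:32631604-32631620: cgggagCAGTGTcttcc
Tfrc, chr16:32631669-32631685: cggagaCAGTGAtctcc
Tfrc, chr16:32631716-32631732: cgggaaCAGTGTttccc
Slc40a1, chr1:45925471-45925487, minus strand: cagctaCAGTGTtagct
Fth1, chr19:9982738-9982754: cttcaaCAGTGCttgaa
The 4 elements found in Tfrc lie in the 3′ UTR, whereas those found in Slc40a1 and Fth1 lie in the 5′ UTR. Elements of any other form would not have been found. An element of this form was found in 189 of the 22252 transcripts of the liver tables (0.849%).

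In liver, Hamp2 was strongly lower with CORT in GRf/f mice but not in GRmKO mice, whereas Hamp, the iron-regulating hepcidin, was moderately lower with CORT in both genotypes and higher in GRmKO than in GRf/f under either treatment. Hamp2 was at 13.9 CPM (12.4 to 15.6) in GRf/f vehicle, 1.65 CPM (1.19 to 2.32) in GRf/f CORT, 23.4 CPM (21.4 to 25.6) in GRmKO vehicle and 32.9 CPM (30.6 to 35.5) in GRmKO CORT. The GRf/f CORT library thus stood alone at the low end, with 33.9 expected counts against 290.9 to 683.7 in the other libraries. With CORT, Hamp2 fell by 2.74 on the log2 scale in GRf/f (interval of the CPM ratio -3.62 to -2.55), and its log2 ratio was 0.48 (0.32 to 0.66) in GRmKO. Without the added 0.5, the fall in GRf/f was 8.4-fold. GRmKO over GRf/f was 0.73 (0.54 to 0.97) under vehicle and 3.96 (3.81 to 4.85) under CORT. Without the added 0.5, the CPM under CORT differed 19.9-fold. The CORT responses of the 2 genotypes differed by 3.22 log2 units, against a median of 0.05 over all genes. With single pooled libraries no test of this difference exists, and the comparisons that share a library (GRf/f CORT appears in the CORT response of GRf/f and in the genotype comparison under CORT) are not independent of each other.

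Hamp was far more abundant than Hamp2 in every liver library. Its levels were 534.3 CPM (524.5 to 544.3) in GRf/f vehicle, 391 CPM (382 to 399) in GRf/f CORT, 890 CPM (877 to 903) in GRmKO vehicle and 583 CPM (573 to 594) in GRmKO CORT. Its lowest library was also GRf/f CORT, but its highest was GRmKO vehicle rather than GRmKO CORT. The log2 ratio of CORT over vehicle was -0.45 (-0.49 to -0.41) in GRf/f and -0.61 (-0.64 to -0.58) in GRmKO, and GRmKO over GRf/f was 0.74 (0.70 to 0.77) under vehicle and 0.58 (0.54 to 0.62) under CORT. None of these reached 2-fold.

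Whether the deposited values count 1 transcript or all transcripts of a gene could not be settled, so levels per length rest on the length of the listed transcript. On that scale, Hamp exceeded Hamp2 by 39.4-fold in GRf/f vehicle, 242-fold in GRf/f CORT, 38.9-fold in GRmKO vehicle and 18.2-fold in GRmKO CORT. Hamp2 accounted for 2.53% (Wilson interval 2.26 to 2.84) of the hepcidin counts in GRf/f vehicle and 2.56% (2.35 to 2.80) in GRmKO vehicle. The vehicle libraries were thus alike in this share, and their intervals overlapped. The share was 0.421% (0.303 to 0.591) in GRf/f CORT and 5.34% (4.97 to 5.75) in GRmKO CORT, below and above both vehicle libraries. Because Hamp made up most of the counts, the sum of both genes followed Hamp, with a log2 ratio of -0.48 for CORT in GRf/f, -0.57 for CORT in GRmKO, 0.74 for genotype under vehicle and 0.65 for genotype under CORT.

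**Figure D1:**
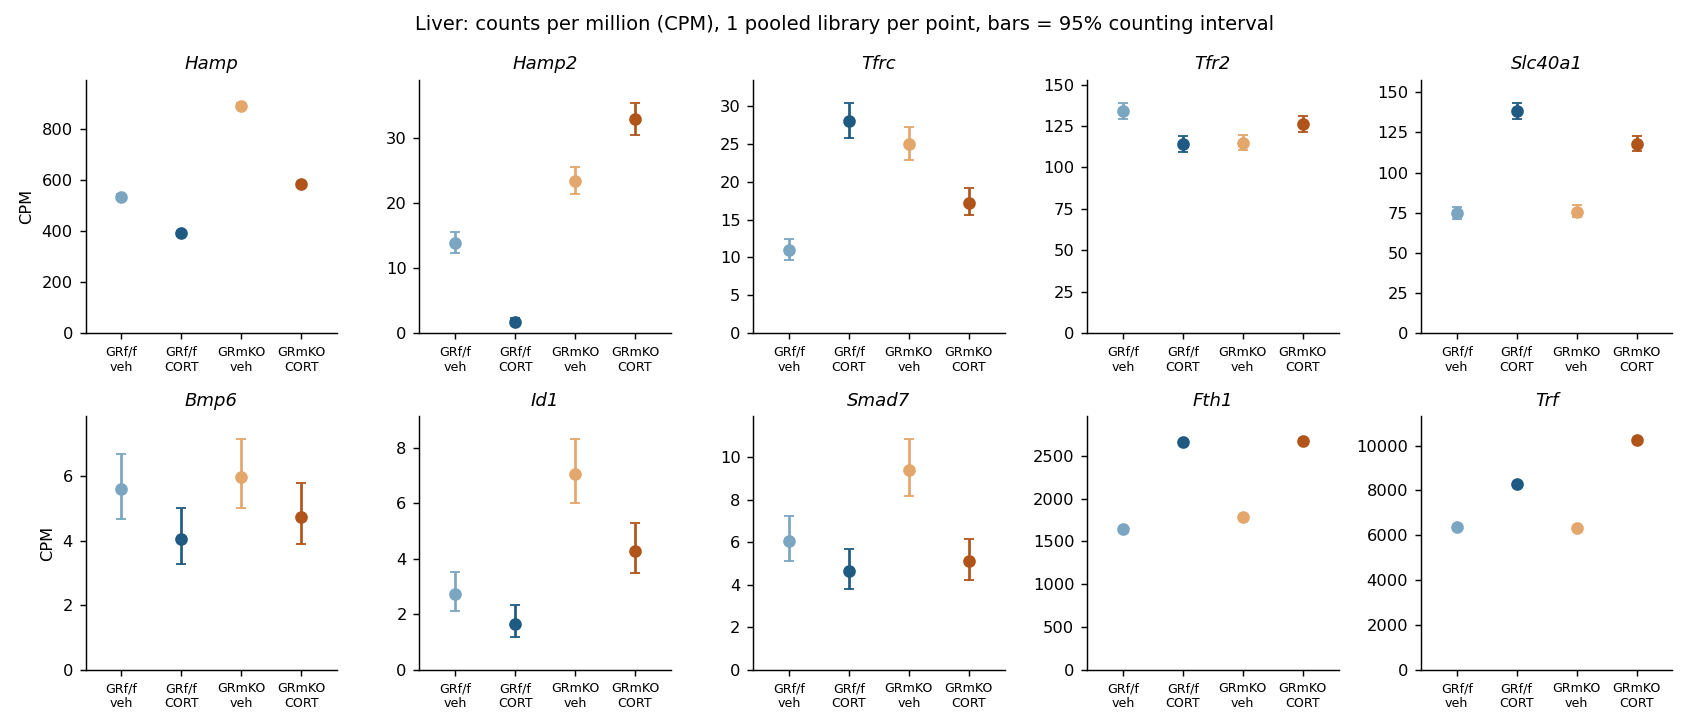
Level in liver of each of the 10 genes, in CPM (linear axes from 0), in the 4 libraries; each point is 1 library of RNA pooled from 3 mice and bars are 95% Wilson intervals of counting error. Hamp2 is at 1.65 CPM in GRf/f CORT and between 13.9 and 32.9 CPM in the other libraries, whereas Slc40a1, Fth1 and Trf are higher in both CORT libraries than in both vehicle libraries.

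Among the signals that act on hepcidin, Bmp6, the BMP ligand that liver endothelial cells release as iron accumulates, had 5.59 CPM in GRf/f vehicle, 4.05 CPM in GRf/f CORT, 5.97 CPM in GRmKO vehicle and 4.75 CPM in GRmKO CORT. Its levels were low and close together, with log2 ratios from -0.42 to 0.21 in the 4 comparisons. Id1, a direct BMP-SMAD target gene, had 2.72, 1.66, 7.04 and 4.29 CPM in the same order. Both GRmKO libraries were above both GRf/f libraries. Id1 was called higher in GRmKO under vehicle (log2 ratio 1.23, interval 0.92 to 1.84) and under CORT (1.15, 0.78 to 1.98), and CORT over vehicle was -0.57 in GRf/f and -0.66 in GRmKO. The order of Id1 across the 4 libraries was the order of Hamp, with GRf/f CORT lowest and GRmKO vehicle highest. Smad7, which encodes an inhibitory SMAD that is itself induced by the pathway, had 6.08 CPM in GRf/f vehicle, 4.65 CPM in GRf/f CORT, 9.41 CPM in GRmKO vehicle and 5.11 CPM in GRmKO CORT. Its largest liver ratio was CORT in GRmKO, at -0.82 (-1.24 to -0.54), and none reached 2-fold. Tfr2, the hepatocyte receptor that takes part in sensing of iron-loaded transferrin, stayed between 114 and 134 CPM, with log2 ratios from -0.23 to 0.15.

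Among the genes that move and store iron, Tfrc, the transferrin receptor through which cells take up iron, had 10.9 CPM (229.2 counts) in GRf/f vehicle, 28.0 CPM in GRf/f CORT, 24.95 CPM in GRmKO vehicle and 17.2 CPM in GRmKO CORT. The GRf/f vehicle library was lowest. Tfrc rose with CORT in GRf/f (log2 ratio 1.32, interval 1.13 to 1.59) and was called higher in GRmKO than in GRf/f under vehicle (1.15, 0.96 to 1.42), while CORT over vehicle was -0.52 (-0.73 to -0.34) in GRmKO and genotype under CORT was -0.69 (-0.90 to -0.51). The CORT responses of Tfrc thus had opposite signs in the 2 genotypes, as did those of Hamp2, with the signs exchanged.

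Ferroportin (Slc40a1), ferritin heavy chain (Fth1, the subunit that oxidizes iron for storage) and transferrin (Trf, the plasma iron carrier) had higher levels with CORT in both genotypes, all short of 2-fold. Slc40a1 had 74.7 CPM in GRf/f vehicle, 138 CPM in GRf/f CORT, 75.7 CPM in GRmKO vehicle and 118 CPM in GRmKO CORT. Its log2 ratio for CORT was 0.88 (0.80 to 0.98) in GRf/f and 0.64 (0.55 to 0.73) in GRmKO. Fth1 had 1649, 2658, 1783 and 2671 CPM in the same order, with CORT ratios of 0.69 and 0.58. The vehicle libraries lay together and the CORT libraries lay together, and the genotype ratios were 0.11 under vehicle and 0.01 under CORT, the latter turning to -0.07 when the libraries were scaled by trimmed-mean (TMM) or median-of-ratios factors. Trf had 6369 CPM in GRf/f vehicle, 8275 CPM in GRf/f CORT, 6321 CPM in GRmKO vehicle and 10226 CPM in GRmKO CORT, with CORT ratios of 0.38 and 0.69. For all 3 genes, the ratios of genotype were smaller in size than those of CORT within each genotype.

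All 10 members passed the filter on low counts in liver. With CORT in GRf/f, 2 of the 10 were called (Tfrc higher and Hamp2 lower), against 14.7% of the 11896 genes compared. With CORT in GRmKO, none of the 10 was called, against 8.53% of all genes. For GRmKO over GRf/f, 2 were called under vehicle (Tfrc and Id1, both higher) against 4.81% of all genes, and 2 under CORT (Hamp2 and Id1, both higher) against 7.33%. These percentages count both directions. The median log2 ratio of the members was -0.29 for CORT in GRf/f, -0.08 for CORT in GRmKO, 0.35 for genotype under vehicle and 0.18 for genotype under CORT, beside 0.00, 0.05, 0.03 and 0.08 over all genes. Since the members were chosen with these ratios known, nothing is read from the counts.

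**Figure D2:**
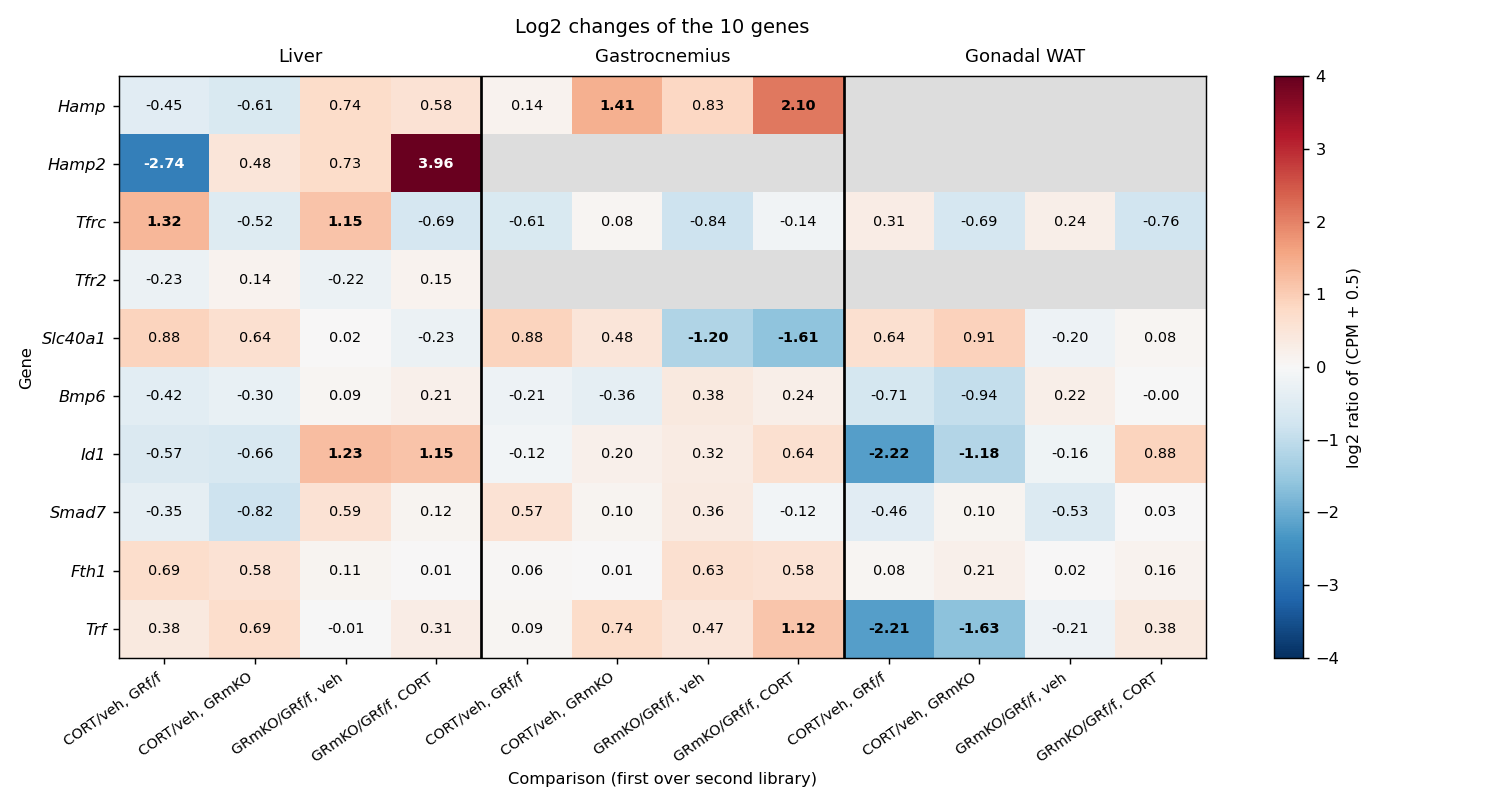
Log2 ratio of (CPM + 0.5) for each gene (rows) in the 12 comparisons (columns, first over second library), with red for higher, blue for lower, bold numbers for ratios of 1 or more in size, and gray where the gene did not pass the filter on low counts. Hamp2 in liver holds the largest values in both directions, -2.74 and 3.96, and Id1 and Trf are lower with CORT in WAT of both genotypes.

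Transcripts of other cell types of the liver also differed between the libraries. The 7 Kupffer cell markers summed to 176 CPM in GRf/f vehicle, 60.3 CPM in GRf/f CORT, 141 CPM in GRmKO vehicle and 88.8 CPM in GRmKO CORT, and 5 of the 7 were called lower with CORT in GRf/f. Marco went the other way, with 3.26, 6.88, 2.32 and 5.14 CPM in the same order. Kupffer cells recycle the iron of aged red cells and express Slc40a1, which was higher with CORT in both genotypes, where the Kupffer sum was lower. The 5 markers of sinusoidal endothelium, the source of Bmp6, summed to 147, 78.3, 138 and 121 CPM. The erythroid markers summed to 1020, 446, 663 and 1120 CPM, mostly of globin transcripts. Alas2 did not follow the globins, with 89.9, 74.5, 66.7 and 58.2 CPM. In GRf/f, 4 of the 5 erythroid markers that passed the filter were called lower with CORT, and under CORT the same number were called higher in GRmKO than in GRf/f. Erythroid precursors express Tfrc, and in each genotype the Tfrc level and the erythroid sum changed in opposite directions with CORT. The part of these cells in the results was not tested, and in bulk tissue fewer cells of a type and less RNA per cell cannot be told apart.

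The pathway was then followed in 4 lists, which also hold members. Of the genes compared in liver, 14.7% were called with CORT in GRf/f, 8.53% with CORT in GRmKO, 4.81% for genotype under vehicle and 7.33% for genotype under CORT, and the list counts below stand beside these. In the BMP-SMAD list, all 19 genes passed the filter (16 besides Bmp6, Id1 and Smad7), and with CORT in GRf/f 3 were called higher (Hjv, Id2 and Id3) and 1 lower (Bmp2). None was called with CORT in GRmKO, 3 were higher in GRmKO under vehicle (Id1, Id2 and Id3), and 1 under CORT (Id1). Id2 and Id3 are, with Id1, BMP-responsive inhibitors of DNA binding. Id3 had 13.8 CPM in GRf/f vehicle, 35.1 CPM in GRf/f CORT, 36.0 CPM in GRmKO vehicle and 31.5 CPM in GRmKO CORT, and Id2 had 46.3, 114, 110 and 111 CPM. Both were low in GRf/f vehicle alone, as was Tfrc, and unlike Id1 they rose with CORT in GRf/f (log2 ratio 1.31 for Id3 and 1.29 for Id2). Bmp2, a second hepcidin-inducing ligand of liver endothelium, had 22.1, 9.08, 16.5 and 14.2 CPM, and fell by 1.24 on the log2 scale with CORT in GRf/f. Hjv, the hemojuvelin coreceptor of BMPs, had 35.4, 75.8, 32.0 and 51.7 CPM, with CORT ratios of 1.09 in GRf/f and 0.68 in GRmKO.

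In the list of humoral and inflammatory regulators, 8 of 10 genes passed in liver. Gdf15, a stress-induced cytokine of the TGF-β superfamily, had 9.85 CPM in GRf/f vehicle, 19.9 CPM in GRf/f CORT, 6.22 CPM in GRmKO vehicle and 48.2 CPM in GRmKO CORT. It rose with CORT in GRmKO (2.86) and was called higher in GRmKO under CORT (1.26), with a ratio of 0.98 for CORT in GRf/f. Inhbb, which encodes the activin B subunit, was called higher with CORT in GRf/f (1.02) and in GRmKO (1.40). No other gene of the list was called, so that Il6ra, Il6st, Stat3 and Socs3, the IL-6 arm, were within 2-fold in all 4 liver comparisons.

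In the list of uptake, storage and export genes, all 23 passed in liver, 18 of them besides members. Tfrc was called as described, and 2 others were called lower with CORT in GRf/f, the metalloreductase Steap4 (109, 39.0, 95.3 and 52.1 CPM) and Fbxl5, the iron-sensing ubiquitin ligase subunit that degrades an iron regulatory protein. Fbxl5 was listed at 0 in GRf/f CORT and at 15.3 to 19.5 CPM in the other libraries. In liver, 121 of 11896 genes were listed at 0 in GRf/f CORT alone, and 91 to 114 in each of the other libraries alone. An entry at 0 may also be a failure of assignment to the listed transcript, which was not tested. None of the 23 was called with CORT in GRmKO, and only Fbxl5 was called under CORT between the genotypes. In the heme list, all 19 genes passed, and 2 were called lower with CORT in GRf/f, 1 higher and 2 lower with CORT in GRmKO, none between the genotypes under vehicle, and 1 higher and 1 lower under CORT. Alas1, the rate-limiting enzyme of hepatic heme synthesis, had 485 CPM in GRf/f vehicle, 50.1 CPM in GRf/f CORT, 519.4 CPM in GRmKO vehicle and 275 CPM in GRmKO CORT. It fell by 3.26 on the log2 scale with CORT in GRf/f, with a ratio of -0.92 in GRmKO, and was 2.44 higher in GRmKO under CORT. As for Hamp2, the GRf/f CORT library was the low one. Flvcr1, the heme exporter, was called lower with CORT in both genotypes from low levels (2.34, 0.328, 1.75 and 0 CPM). Hp, which encodes haptoglobin, the scavenger of free hemoglobin, was called higher with CORT in GRmKO (1.13) and had a ratio of 0.91 in GRf/f, while Cd163, its macrophage receptor, was called lower in GRmKO (-1.11), with -0.77 in GRf/f. Uros, another enzyme of heme synthesis, was called lower in GRmKO than in GRf/f under CORT (-1.44).

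**Figure D3:**
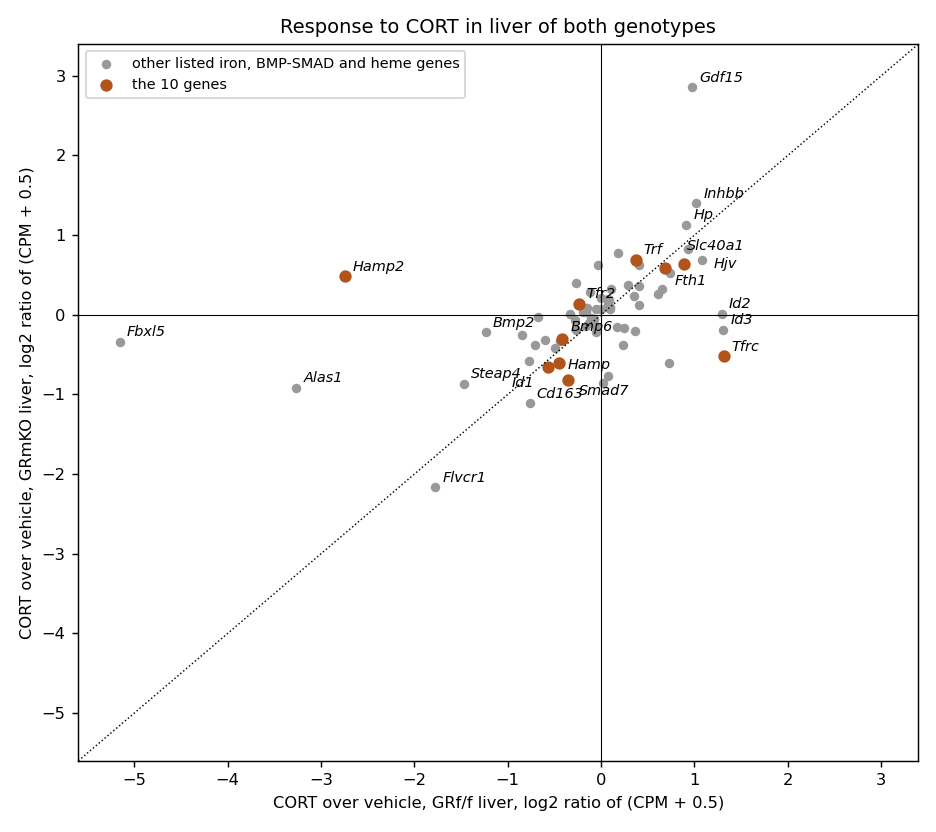
Log2 ratio of CORT over vehicle in liver of GRf/f (x axis) and GRmKO (y axis) for the 10 genes (orange) and the other listed genes that passed the filter (gray); the dotted line marks equal ratios, and the 10 genes and any other gene past 2-fold in either genotype are named. Hamp2 (-2.74 and 0.48) and Tfrc (1.32 and -0.52) lie far from the line on opposite sides, whereas Hamp (-0.45 and -0.61) and Slc40a1 (0.88 and 0.64) lie near it.

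The 5 genes with liver profiles most like that of Hamp2, by Euclidean distance of centered log2(CPM + 0.5) over the 4 libraries, were Usp20 (distance 0.346), Arhgap24 (0.460), Mfsd13a (0.592), Zfp217 (0.663) and Zbtb2 (0.690). All 5 had their lowest level in GRf/f CORT, where each was listed at 0, and they had at most 8.11 CPM elsewhere. Hamp2, by contrast, had 33.9 counts in that library. The 5 genes were chosen for this likeness, so their low level there is no further result. As for Fbxl5, an entry at 0 may also be a failure of assignment, which was not tested. Among the members, Id1 was nearest to Hamp2, at rank 199 of 11895 genes, and Hamp was at rank 686.

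In gastrocnemius, ferroportin was lower and transferrin higher in GRmKO than in GRf/f, and a few hepcidin transcripts appeared in GRmKO. Slc40a1 had 25.1 CPM in GRf/f vehicle, 46.7 CPM in GRf/f CORT, 10.6 CPM in GRmKO vehicle and 15.0 CPM in GRmKO CORT. Both GRmKO libraries were below both GRf/f libraries, with log2 ratios of genotype of -1.20 (-1.48 to -1.01) under vehicle and -1.61 (-1.83 to -1.45) under CORT, and CORT over vehicle was 0.88 in GRf/f and 0.48 in GRmKO. Trf had 37.1, 39.6, 51.6 and 86.5 CPM in the same order, with GRmKO CORT highest. Trf was called higher in GRmKO under CORT (1.12, 1.01 to 1.25), and the CORT ratio was 0.09 in GRf/f and 0.74 in GRmKO. Fth1 had 1589, 1656, 2456 and 2477 CPM, so that it differed between genotypes (0.63 under vehicle and 0.58 under CORT, short of 2-fold) and hardly with CORT (0.06 and 0.01). Tfrc had 124 CPM in GRf/f vehicle, and 81.1, 69.15 and 73.35 CPM in the other libraries, with ratios of -0.61 for CORT in GRf/f and -0.84 for genotype under vehicle. GRf/f vehicle was thus the highest of the muscle libraries, while in liver it was the lowest. Bmp6 (22.15 to 33.7 CPM), Id1 (20.2 to 31.7 CPM) and Smad7 (9.65 to 14.6 CPM) were within 2-fold in every muscle comparison.

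Hamp in gastrocnemius had 0 counts in GRf/f vehicle, 1 in GRf/f CORT, 7.9 in GRmKO vehicle and 38.0 in GRmKO CORT, that is, up to 1.87 CPM. It passed the filter only through the GRmKO CORT library, so that its ratios against that library had to be large and are given as values only. They were 1.41 (interval 1.11 to 3.54) for CORT in GRmKO and 2.10 for genotype under CORT, where the interval of the CPM ratio was 2.61 to 10.52 because of the single count in GRf/f. Under vehicle, the level of Hamp in GRmKO was 2.59-fold the floor of 3 counts in GRf/f, and the interval of the log2 CPM ratio began at 0.75. Hamp2 (0, 0, 2.0 and 4.1 counts) and Tfr2 (0, 2.0, 2.0 and 16.0 counts) did not pass the filter. The Tfr2 entry of the gastrocnemius tables bears another transcript than that of the liver tables.

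Transcripts of hepatocytes moved in the same libraries as Hamp. The 5 hepatocyte markers summed to 6.03 CPM in GRf/f vehicle, 8.46 CPM in GRf/f CORT, 77.4 CPM in GRmKO vehicle and 259 CPM in GRmKO CORT, with all 5 called higher in GRmKO under both treatments. Albumin (Alb) had 4.13, 7.47, 56.4 and 198 CPM. In GRmKO CORT, muscle Hamp was 0.320% of its level in the liver library of the same group, and the 5 markers were between 0.178% (Alb) and 0.438% (Fabp1) of theirs. In GRmKO vehicle, the corresponding values were 0.0441% for Hamp and 0.0658% (Fabp1) to 0.0958% (Apoa1) for the markers. Hamp2 was above the markers in both, at 0.604% in GRmKO CORT and 0.424% in GRmKO vehicle, from 4.1 and 2.0 counts in muscle. Trf in muscle was 0.583%, 0.478%, 0.816% and 0.845% of its liver level in the 4 libraries, above the markers in each. Erythroid markers also moved, with summed levels of 799, 774, 1333 and 2477 CPM, and macrophage markers had 40.0, 43.0, 116 and 34.2 CPM. The 4 adipocyte markers summed to 177, 473, 281 and 394 CPM, and with CORT 4 of the 4 were called higher in GRf/f and 3 in GRmKO. Their part in the muscle results was not tested.

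In gastrocnemius, 8 members passed, of which Hamp did so only through the library where it was high. Of the other 7, none was past 2-fold with CORT in GRf/f (10.8% of the 13119 genes compared were) or with CORT in GRmKO (9.15%), 1 was for genotype under vehicle (Slc40a1, 10.6%) and 2 were for genotype under CORT (Trf and Slc40a1, 12.5%). With Hamp included, the counts were 1 for CORT in GRmKO and 3 for genotype under CORT, and the medians of the 8 were 0.07, 0.15, 0.37 and 0.41 in that order, beside -0.09, -0.10, 0.08 and 0.03 over all genes. Nothing is read from these counts and medians.

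The list counts in gastrocnemius stand beside 10.8%, 9.15%, 10.6% and 12.5% of all genes called in the 4 comparisons, in the order above. Of the BMP-SMAD list, 18 of 19 genes passed, 15 of them besides members, and the BMP type I receptor Acvr1 was called lower with CORT in GRf/f (11.6, 4.98, 18.8 and 17.2 CPM) and higher in GRmKO under CORT, and Id2 higher in GRmKO under vehicle (1.17). Of the humoral and inflammatory list, 6 of 10 passed, with 2 called higher with CORT in GRf/f, none with CORT in GRmKO, 1 higher in GRmKO under vehicle, and 1 higher and 1 lower under CORT. Socs3, a STAT3 target, had 15.3, 12.8, 33.9 and 64.9 CPM and was called higher in GRmKO under vehicle (1.12) and CORT (2.30). Inhbb was called higher with CORT in GRf/f (1.39). Il6ra, the IL-6 receptor, rose with CORT in GRf/f (7.07, 36.5, 9.23 and 5.74 CPM; log2 ratio 2.29 in GRf/f and -0.64 in GRmKO). Of the uptake, storage and export list, 22 of 23 passed, with 2 called lower with CORT in GRf/f, none with CORT in GRmKO, 1 lower in GRmKO under vehicle (the member Slc40a1), and 2 higher and 3 lower under CORT, of which Trf and Slc40a1 are members. Slc39a8 was called lower with CORT in GRf/f and higher in GRmKO under CORT, its largest ratio being 1.88 in size. Steap3, an endosomal ferrireductase, fell by 1.26 with CORT in GRf/f (59.1, 24.4, 60.0 and 39.4 CPM) with a ratio of -0.60 in GRmKO. Heph, the ferroxidase that works with ferroportin, had 1.81, 3.93, 1.73 and 1.08 CPM and, like Slc40a1, was called lower in GRmKO under CORT (-1.49). All 19 heme genes passed, with 1 called higher and 1 lower with CORT in GRf/f, 1 higher with CORT in GRmKO, 3 higher in GRmKO under vehicle and 4 higher under CORT. Hp rose with CORT in both genotypes (3.28 in GRf/f and 2.23 in GRmKO), and the adipocyte sum given above was higher in the same CORT libraries. Hpx, which encodes the plasma heme carrier hemopexin and is made in hepatocytes, had 0.302, 0.155, 2.04 and 4.47 CPM, with GRmKO CORT highest and GRmKO vehicle next, as for the hepatocyte markers. Hmox2 was called higher in GRmKO under vehicle (1.40).

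**Figure D4:**
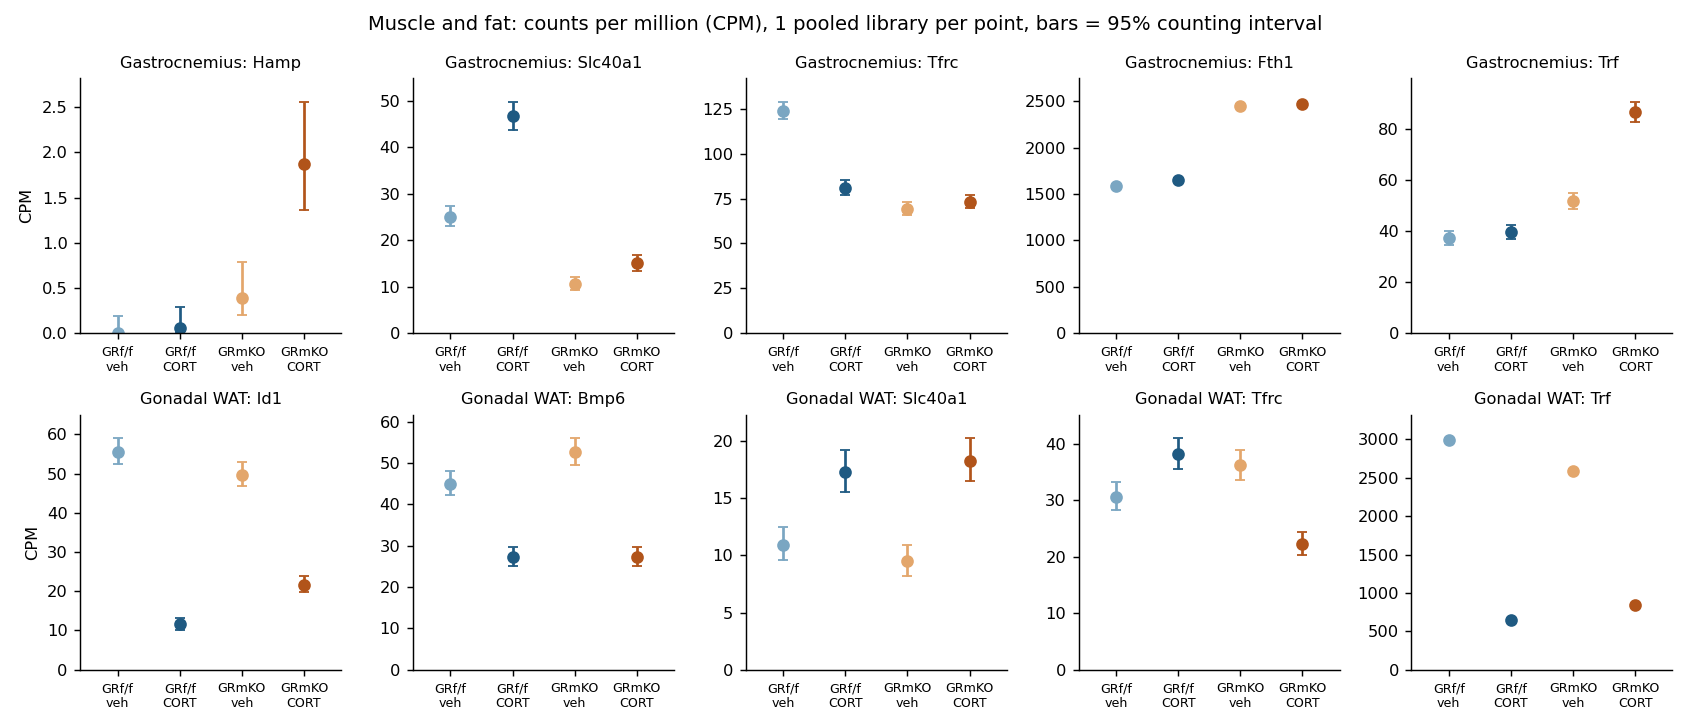
Level of 5 genes in gastrocnemius (top row) and of 5 genes in gonadal WAT (bottom row), in CPM (linear axes from 0); each point is 1 library of RNA pooled from 3 mice and bars are 95% Wilson intervals of counting error. Slc40a1 in muscle is at 10.6 and 15.0 CPM in GRmKO, below both GRf/f libraries, and Id1 and Trf in WAT are lower in both CORT libraries than in both vehicle libraries.

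In WAT, Id1 and Trf were lower with CORT in both genotypes. Id1 had 55.6 CPM in GRf/f vehicle, 11.6 CPM in GRf/f CORT, 49.7 CPM in GRmKO vehicle and 21.65 CPM in GRmKO CORT. It fell by 2.22 on the log2 scale (interval -2.48 to -2.06) in GRf/f and by 1.18 (-1.37 to -1.04) in GRmKO. Trf had 2990, 647, 2592 and 840 CPM in the same order, and fell by 2.21 (-2.24 to -2.18) in GRf/f and by 1.63 (-1.65 to -1.60) in GRmKO. For both genes the vehicle libraries were close to each other, the CORT libraries were below them, and the lower of the CORT libraries was that of GRf/f, with genotype ratios under CORT of 0.88 for Id1 and 0.38 for Trf. Trf thus had CORT ratios of opposite sign in WAT and liver. Bmp6 had 45.0, 27.3, 52.6 and 27.2 CPM, with CORT ratios of -0.71 in GRf/f and -0.94 in GRmKO. Slc40a1 had 10.9, 17.3, 9.48 and 18.3 CPM, with CORT ratios of 0.64 and 0.91, the latter crossing 2-fold (1.04 and 1.03) under the alternative scalings. Tfrc had 30.7, 38.2, 36.2 and 22.3 CPM, and its CORT ratio was 0.31 in GRf/f and -0.69 in GRmKO, the same signs as in liver. Smad7 (8.20 to 12.1 CPM) and Fth1 (2941 to 3462 CPM) were within 2-fold throughout.

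Hamp had 9.0, 9.0, 5.0 and 12.1 counts in WAT, Hamp2 had 0 in all 4 libraries, and Tfr2 had 21, 0, 7.1 and 0 counts, so these 3 members did not pass the filter. The floor of 3 counts, taken as the limit that a count of 0 allows, was at most 0.152 CPM in the WAT libraries. Of the 7 members that passed, 2 were called with CORT in GRf/f (16.3% of the 13672 genes compared) and the same 2 in GRmKO (11.7%), and none for genotype under vehicle (4.09%) or CORT (4.74%). With CORT in GRmKO, the calls over all genes were 645 higher and 948 lower, and 789 higher and 754 lower when TMM factors were used, which moved the median of all genes from -0.13 to -0.00. Macrophage markers had summed levels of 252, 595, 295 and 524.1 CPM, and endothelial markers of 514, 199, 482 and 270 CPM. The endothelial sum was thus lower in the same libraries as Id1 and Bmp6, and the macrophage sum higher in the same libraries as Slc40a1. Erythroid markers summed to 4376, 2155, 4442 and 5675 CPM, and hepatocyte markers to 52.4, 57.8, 65.8 and 103 CPM. The part of these cell types in the WAT results was not tested.

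The list counts in WAT stand beside 16.3%, 11.7%, 4.09% and 4.74% of all genes called. Of the BMP-SMAD list, 17 of 19 genes passed, with 1 called higher and 4 lower (the member Id1 among them) with CORT in GRf/f, 1 lower with CORT in GRmKO (again Id1), 1 lower in GRmKO under vehicle and none under CORT. Id2 (19.8, 5.99, 14.8 and 8.90 CPM) and Atoh8 (19.2, 6.13, 14.8 and 8.96 CPM), both BMP-responsive, were called lower with CORT in GRf/f, at -1.64 and -1.57, with ratios of -0.70 and -0.69 in GRmKO. Neo1, which binds hemojuvelin, was called higher in GRf/f (1.16). All 19 heme genes passed, of which 5 were called higher and 1 lower with CORT in GRf/f, 2 higher with CORT in GRmKO, and 1 higher between the genotypes under each treatment. Hmox1, the heme-degrading enzyme, rose with CORT in both genotypes (50.1, 274, 60.2 and 195 CPM), with ratios of 2.44 in GRf/f and 1.69 in GRmKO. Of the uptake, storage and export list, 22 of 23 passed, with 2 called higher and 1 lower (Trf) with CORT in GRf/f, Trf alone with CORT in GRmKO, and none between the genotypes. Fbxl5 was called higher with CORT in GRf/f (1.68), whereas in liver it was called lower. Scara5, a ferritin receptor, rose in GRf/f (88.1, 267, 115 and 196 CPM), with a ratio of 0.76 in GRmKO. Hp (1.55 and 1.91) and Gdf15 (2.05 and 2.04) were also called higher with CORT in both genotypes, Gdf15 from 0.952 and 0.982 CPM under vehicle. Of the 7 humoral and inflammatory genes that passed, 1 was called higher with CORT in GRf/f and 2 in GRmKO, and none between the genotypes. Socs3 was the one called with CORT in GRmKO alone (1.05).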

How the data were processed

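RNA-seq libraries of gastrocnemius, liver and gonadal WAT were analyzed from the deposited tables of expected counts. According to the methods of the study and the submitters' processing notes, the authors pooled RNA of 3 mice per group, quantified reads with Salmon 1.2.1 against protein-coding transcripts (mm10), and summarized them in R 3.5.0 to length-scaled estimates that need not be whole. Each table names 1 transcript per gene, since where several entries shared a gene name the authors kept the one with the highest total. Whether its value covers that transcript or the whole gene could not be settled, which bears on levels per length, on Tfr2 and on entries listed at 0. All entries were matched to GENCODE release M21 (GRCm38) for positions and lengths. Groups follow the genotype and treatment in the labels. No column was left unused.

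CPM was the expected count over the library total. Genes with a mean of at least 10 expected counts over the 4 libraries of a tissue were compared as log2 ratios of CPM + 0.5, and called at 2-fold. There is 1 library per group, so no test was made, and intervals (95%, Wilson for CPM and shares, exact Clopper-Pearson for ratios) cover counting error only. A ratio's interval was computed without the added 0.5 and can therefore lie off the log2 ratio for low genes. Per-length levels divide by the length of the listed transcript. Scaling factors came from edgeR 4.0.16 (TMM) and DESeq2 1.42.0 (median of ratios) in R 4.3.3, and the rest was done in Python 3.11.15 with pandas 2.3.3 and scipy 1.17.1.

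The members and lists were chosen with earlier results of these data known. Named beside the 10 members were list genes past 2-fold (in liver at most 12 per list, elsewhere at most 3 per list and tissue, by size), the 5 genes nearest to Hamp2 in liver, and Nr3c1. The percentages of liver levels and the counts of single zeros were added after the values were seen. IREs were searched as CAGTG and a base other than G, between 5 paired bases with an unpaired C before the 5′ arm. Pairs of G with T were allowed. The listed transcripts were scanned over their whole length, and among the members Smad7 was not searched.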

Additional observations from a re-analysis of the deposited data

Results flagged for a closer look

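In 3 genes, CORT over vehicle had opposite signs in the 2 genotypes in the same tissue, with counting intervals that exclude 0 in both. In liver, the log2 ratio of Hamp2 was -2.74 in GRf/f and 0.48 in GRmKO, that of Tfrc was 1.32 in GRf/f and -0.52 in GRmKO, and that of Tfr2 was -0.23 in GRf/f and 0.14 in GRmKO. In WAT, the log2 ratio of Tfrc was 0.31 in GRf/f and -0.69 in GRmKO. These differences between genotypes were not tested, since each group is 1 pooled library, and the ratios of Tfr2 were well short of 2-fold. The Tfr2 ratio in GRmKO was 0.07 with TMM and 0.08 with median-of-ratios scaling, and the intervals were computed for unscaled CPM only.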

How the results depend on the processing

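The 4 liver ratios of Hamp2 kept their direction and their side of 2-fold with 0.1 or 1 CPM added and with TMM or median-of-ratios scaling. With 1 CPM added, 1 member in place of 2 was called between the genotypes in liver under CORT (Id1, at 0.99, was no longer called). With 0.1 CPM added, 2 members in place of 1 were called between the genotypes in gastrocnemius under vehicle (Hamp, at 2.30, in addition). With CORT in gastrocnemius of GRmKO, 1 member was called, 0 when only genes above 0 in all 4 libraries were kept, and 2 with no filter. That stricter filter lowered the genes called between the genotypes from 572 to 287 in liver under vehicle, from 559 to 316 in WAT under vehicle, and from 648 to 372 in WAT under CORT, since fewer genes were compared. Of 384 other member values recomputed, 4 crossed 2-fold and 4 changed sign, the latter all between the genotypes and from values of 0.01 or 0.02 (Fth1 and Slc40a1).

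No paired analysis was possible because each group has 1 library, and for the same reason no library was left out. Spread between mice is unknown, and Hamp and Hamp2 had at most 38.0 counts in any library outside liver. The division of reads between Hamp and Hamp2 was not tested.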
